A study of Mus musculus with 8 samples.

Results

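A set of 9 receptors that steer leukocytes were followed in mouse plasmacytoid dendritic cells (pDC): Ccr2, Ccr6, Ccr7, Ccr9, Cxcr3, Cxcr4, Cx3cr1, Cmklr1 and S1pr1. They are 9 of the 36095 features on the array, counted by distinct name. Some features carry no gene name, and the counts of all genes below include such features. They were read from every probe that the scanner files name by one of these symbols, 11 in all. Ccr9 and Cx3cr1 had 2 probes each and the other 7 genes had 1, and the probe with the highest mean signal over the 8 arrays stood for its gene. That probe was chosen by its mean signal over both groups together, a value that enters no test below. The genes themselves were selected on earlier results of the same comparison, so their differences are given as a description.

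The samples were 4 arrays of Sca-1- pDC and 4 of Sca-1+ pDC, numbered 1 to 4 in each group. All cells came from female BALB/c mice, were grown in culture from precursors of the bone marrow with mouse Flt3 ligand (mFlt3-L), were sorted with magnets and by flow cytometry, and were lysed without further treatment. Sca-1 is a surface protein encoded by Ly6a, so the groups differ by a sorted marker and no gene was altered. Neither the age of the mice nor whether the replicates came from separate cultures is given in the sources used here, so each p-value refers to the spread among these 8 samples alone, and that spread may be technical.

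Most chemokine receptors are membrane-spanning receptors that signal through inhibitory G proteins, and a cell that carries one moves towards the source of its ligand. Cxcr4 holds developing blood cells in the bone marrow, where stromal cells make its ligand Cxcl12, whereas S1pr1, the receptor for sphingosine 1-phosphate, guides lymphocytes out of tissues into blood and lymph. pDC arise in the marrow, circulate, and enter lymph nodes, gut and inflamed tissue, and the receptors they carry differ between precursors and mature cells. Ccr9 marks mature mouse pDC, and Cx3cr1 is carried by monocytes and by precursors of macrophages and dendritic cells.

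The stretch just upstream of the transcription start is shown for the 3 receptor genes that passed the test described below, because 2 of them were lower and 1 was higher in Sca-1+ cells. Of the 9 genes, 7 had an entry in the RefSeq promoter table (build GRCm38.p6). Each sequence holds the 250 bases before a start, written 5′ to 3′ on the gene's strand, and capitals mark the E-box pattern CANNTG, the kind of site bound by E proteins such as Tcf4, the pDC regulator. The Cx3cr1 window is chr9:120068297-120068546 (minus strand) and the Cxcr4 window is chr1:128592300-128592549 (minus strand). Ccr6 has 2 starts in the table, with windows at chr17:8235793-8236042 and chr17:8242276-8242525 (plus strand).
Cx3cr1: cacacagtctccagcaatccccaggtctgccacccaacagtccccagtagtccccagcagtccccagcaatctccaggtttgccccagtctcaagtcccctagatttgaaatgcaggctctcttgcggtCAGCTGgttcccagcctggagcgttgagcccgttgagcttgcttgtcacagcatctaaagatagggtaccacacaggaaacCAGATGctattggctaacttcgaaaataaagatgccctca
Cxcr4: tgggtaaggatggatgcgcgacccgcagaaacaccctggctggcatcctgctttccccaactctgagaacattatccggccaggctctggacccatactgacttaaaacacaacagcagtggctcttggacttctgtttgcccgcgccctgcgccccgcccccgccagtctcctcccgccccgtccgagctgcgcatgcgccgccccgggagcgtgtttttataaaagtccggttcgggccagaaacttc
Ccr6 start 1: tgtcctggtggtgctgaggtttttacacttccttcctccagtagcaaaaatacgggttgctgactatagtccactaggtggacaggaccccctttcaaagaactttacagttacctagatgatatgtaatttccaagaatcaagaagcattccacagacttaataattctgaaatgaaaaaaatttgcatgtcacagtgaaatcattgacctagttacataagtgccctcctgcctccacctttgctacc
Ccr6 start 2: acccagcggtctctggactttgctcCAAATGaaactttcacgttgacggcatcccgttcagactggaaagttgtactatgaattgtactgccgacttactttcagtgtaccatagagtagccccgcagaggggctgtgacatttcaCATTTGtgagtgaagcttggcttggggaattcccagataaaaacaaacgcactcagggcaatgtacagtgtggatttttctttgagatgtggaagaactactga

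The Cx3cr1 window held 2 E-box matches, CAGCTG beginning 121 bases and CAGATG beginning 40 bases before the start. The window of the second Ccr6 start also held 2, CAAATG at 225 and CATTTG at 104 bases. The first Ccr6 window and the Cxcr4 window held 0. The pattern reads the same on both strands and occurs in 66.2% of the 32851 upstream windows of this length in the table. The GC box GGGCGG, searched on both strands, occurred 3 times in the Cxcr4 window, beginning 95, 75 and 50 bases before the start, in none of the other 3 windows printed, and in 32.7% of all windows. GC content was 61.2% for Cxcr4, 53.6% for Cx3cr1, and 41.2% and 46.0% for the Ccr6 starts, against a median of 52.4% over all windows. The pattern GAGGAA, a core bound by PU.1, occurred once in the first Ccr6 window (23.3% of all windows hold it), and TGTGGT, a core bound by Runx factors, occurred once in the Cx3cr1 window (14.0%). Both were searched on both strands. These matches describe the sequence only.

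Levels are given on the log2 scale as the processed signal minus each array's 75th percentile. They compare samples for 1 probe and do not rank one receptor against another, so no order of levels among the genes is given. Between 45.9% and 54.9% of spots were well above background per array, and that percentile lay at 152 to 434 signal units over probes, highest on slide 4. The slide 4 arrays were scanned in a second session and extracted with another protocol. Ly6a, the sorted gene, was higher in 4 of 4 Sca-1+ samples, by 4.24 to 4.96 within slides. Samples with the same replicate number shared a slide, and slide differences below are Sca-1+ minus Sca-1- within a slide. Placement on the slide followed the group throughout, with 1 for Sca-1- and 2 for Sca-1+ on all 4 slides. Comparing samples within slides therefore does not separate group from placement, and an effect of placement was not tested. Testing was limited to genes whose probe the scanner program marked well above background on 4 or more of the 8 arrays. Of the 9 receptors, 7 passed that filter, each on all 8 arrays, and Cmklr1 and S1pr1 did not. Of 19818 tested genes limma called 339 (1.71%) at an adjusted p below 0.05. Among the 7 receptors 3 were called, Cx3cr1 and Cxcr4 as lower and Ccr6 as higher in Sca-1+ pDC, where 1.58% of all genes were called lower and 0.126% higher. The receptors were gathered with results of these arrays known, so that count describes the list and is not evidence about it.

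**Figure D1:**
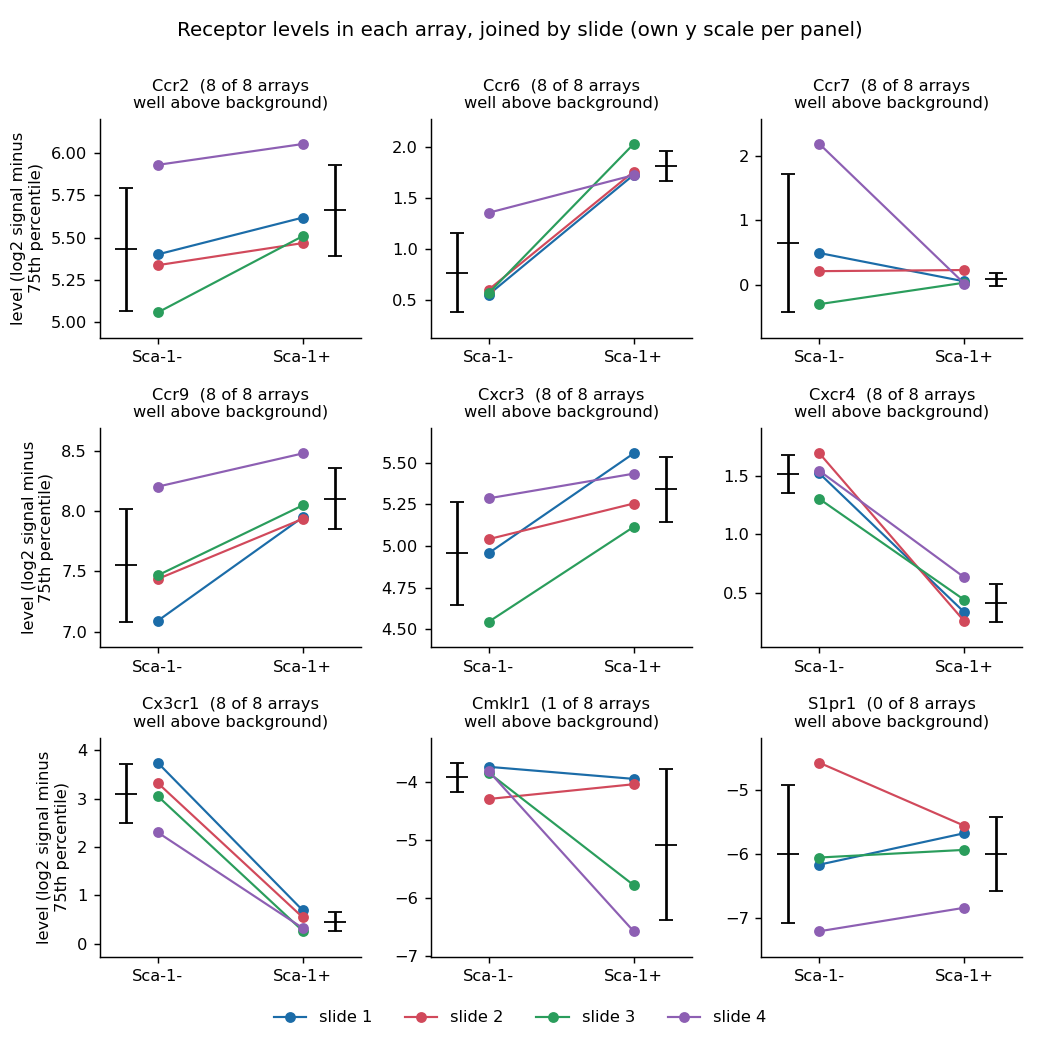
Level of each receptor gene (y axis, log2 processed signal minus the array's 75th percentile, own scale per panel) in Sca-1- and Sca-1+ pDC, with a coloured line joining the samples of a slide and black bars for the mean ± SD of 4 samples. Lines for Cx3cr1 and Cxcr4 fall and lines for Ccr6, Ccr9, Cxcr3 and Ccr2 rise on all 4 slides, and Cmklr1 and S1pr1 were well above background on 1 and 0 of 8 arrays.

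Cx3cr1, the fractalkine receptor, was the receptor with the largest difference. In the order of replicates 1 to 4, the Sca-1- samples read 3.74, 3.32, 3.05 and 2.30, and the Sca-1+ samples read 0.69, 0.54, 0.27 and 0.32. Every Sca-1+ sample lay below every Sca-1- sample, with a gap of 1.61 between the groups, and the Sca-1- samples spread more (SD 0.61 against 0.20, n = 4 each). The fitted difference was -2.65 ± 0.29 SE (95% confidence interval -3.31 to -1.99), a 6.27-fold lower signal, with an adjusted p of 0.00503 by limma. Only 8 of the 19818 tested genes had a lower fitted value, and 0.0555% had a larger difference in either direction. Within slides 1 to 4 the differences were -3.05, -2.78, -2.79 and -1.98. The main probe lies on chromosome 9, 119957811 to 119957870 (mm9).

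The second Cx3cr1 probe, on chromosome 9 at 119959018 to 119959077 (mm9), gave nearly the same picture. Its level was 1.91, 1.69, 1.31 and 0.49 in Sca-1- and -0.74, -1.31, -1.52 and -1.73 in Sca-1+ replicates 1 to 4, so the groups did not overlap for this probe either. With each of 26988 probes fitted on its own, where limma called 1.41%, its difference was -2.68 ± 0.34 SE (adjusted p = 0.00743), against -2.65 for the main probe. Both probes read the same RNA samples, so their likeness speaks to the probes and not to further replicates.

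Markers of monocytes and macrophages, which carry Cx3cr1, and markers of dividing cells were examined beside it. All 6 tested genes of the monocyte and macrophage list had negative differences (median -0.70), limma called 0 of them (2 at an unadjusted p below 0.05), and with the slide as a block 3 were lower. Those 3, named after their values were seen, were Csf1r, the receptor of the macrophage growth factor (-1.19), Ms4a6c (-0.70) and F13a1, encoding a clotting factor subunit of monocytes (-1.49). F13a1 was well above background on only 6 of 8 arrays, and Lyz2, another tested gene of the list, on 5. The summed level of the list's 10 genes with a probe was 5.09 to 5.66 in Sca-1- and 3.82 to 4.78 in Sca-1+ samples. Mertk, a macrophage gene, was well above background on 0 of 8 arrays, and Adgre1, encoding the F4/80 antigen, was on 2 of 8. Of 12 proliferation genes 10 were lower and 0 higher (median -2.03), among them Ccna2 (-2.15), Top2a (-2.06), Mcm5 (-1.92) and Mcm6 (-1.87), each with an adjusted p of 0.00503, and the summed level was 7.21 to 7.90 in Sca-1- and 5.75 to 6.14 in Sca-1+ samples. Sca-1- replicate 4 had the lowest Cx3cr1 level of its group on both probes. The part of monocytes or of dividing cells in the Cx3cr1 difference was not tested, and in sorted bulk samples fewer cells of a type and less RNA per cell cannot be told apart.

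Cxcr4, the receptor for Cxcl12, was also lower in Sca-1+ pDC. Its level was 1.52, 1.69, 1.30 and 1.54 in Sca-1- and 0.33, 0.25, 0.44 and 0.63 in Sca-1+ replicates 1 to 4. The groups did not overlap, with a gap of 0.67, and spread alike (SD 0.16 in both). The fitted difference was -1.10 ± 0.14 SE (95% confidence interval -1.42 to -0.78), a 2.14-fold lower signal (limma adjusted p = 0.00774), and the slide differences were -1.19, -1.44, -0.86 and -0.91. It ranked 425th from the lowest of all tested genes, and 2.45% differed by more in either direction. The calls of Cxcr4 and Cx3cr1 held without any single array and ended without both samples of replicate 1, 2 or 3, at adjusted p-values of 0.0881 to 0.129 and 0.0705 to 0.0882. Its probe lies on chromosome 1, 130485079 to 130485138 (mm9).

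Ccr6, the receptor for Ccl20, was the receptor called as higher. Its level was 0.55, 0.60, 0.56 and 1.35 in Sca-1- and 1.73, 1.76, 2.03 and 1.72 in Sca-1+ replicates 1 to 4. Sca-1- replicates 1 to 3 lay within a narrow range and replicate 4 stood above them, still 0.37 below the lowest Sca-1+ sample. The fitted difference was 1.04 ± 0.21 SE (95% confidence interval 0.57 to 1.51), a 2.06-fold higher signal, with a limma adjusted p of 0.0482. The rise was 1.18, 1.16 and 1.47 on slides 1 to 3 and 0.37 on slide 4. Of the 8 fits that each left out 1 array, only the one without Sca-1- replicate 4 still called it (1.24, adjusted p = 0.00435), and the others gave 0.97 to 1.07 with adjusted p-values from 0.0812 to 0.189. Without the filter on dim probes its adjusted p was 0.166, and with normexp background correction it was 0.0635. The probe lies on chromosome 17, 8449933 to 8449992 (mm9).

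**Figure D2:**
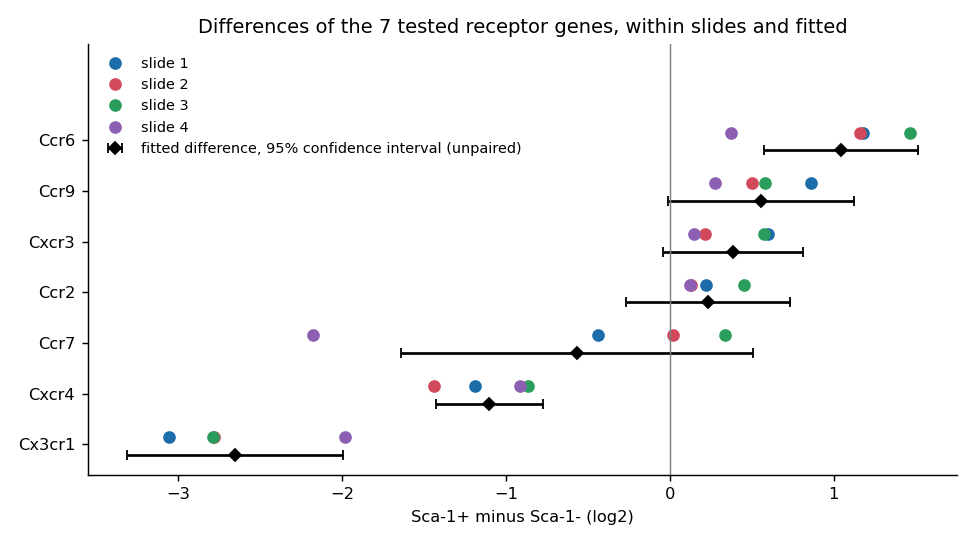
Difference between Sca-1+ and Sca-1- pDC (x axis, log2) for the 7 tested receptor genes, with coloured points for the 4 slides and black diamonds for the fitted value with its unpaired 95% confidence interval. The intervals of Cx3cr1, Cxcr4 and Ccr6 exclude 0, and the slide 4 point of Ccr7 at -2.17 lies apart from its other 3.

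Ccr9, the Ccl25 receptor that draws cells to the small intestine and thymus, leaned higher on both of its probes. The main probe (chromosome 9, 123690334 to 123690393, mm9) read 7.09, 7.44, 7.47 and 8.20 in Sca-1- and 7.95, 7.94, 8.05 and 8.48 in Sca-1+ replicates 1 to 4. Each Sca-1+ sample was above its slide partner, but Sca-1- replicate 4 lay above Sca-1+ replicates 1 to 3, so the groups overlapped. The difference of 0.55 ± 0.25 SE (95% confidence interval -0.01 to 1.12, adjusted p = 0.580) did not pass in limma, and with the slide as a block it did (adjusted p = 0.0495), in a fit that called 6.22% of all genes. With that block 4 of the 7 receptors were called, 2 of them higher, where 2.10% of all genes were called higher and 4.12% lower. The slide differences were 0.86, 0.50, 0.58 and 0.28.

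The second Ccr9 probe was designed on another transcript record, AK162996, and lies on chromosome 9 at 123680935 to 123680994 (mm9). It read 3.84, 4.09, 4.11 and 4.57 in Sca-1- and 4.86, 4.59, 4.85 and 4.94 in Sca-1+ replicates 1 to 4. Its groups did not overlap, by a margin of 0.01. Fitted on its own it differed by 0.66 ± 0.18 SE (adjusted p = 0.201 by limma, or 0.0514 in the blocked fit), and in that probe fit the main probe also missed the threshold with the block (adjusted p = 0.0578).

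Cxcr3, which binds the interferon-induced chemokines Cxcl9, Cxcl10 and Cxcl11, had positive differences on every slide, of 0.60, 0.21, 0.57 and 0.15. Its level was 4.96, 5.04, 4.54 and 5.29 in Sca-1- and 5.56, 5.26, 5.11 and 5.44 in Sca-1+ replicates 1 to 4, and the groups overlapped. The fitted difference was 0.38 ± 0.19 SE (95% confidence interval -0.04 to 0.81) and did not pass in limma (adjusted p = 0.651). The probe lies on chromosome X, 98926920 to 98926979 (mm9).

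Ccr2, the receptor for Ccl2 by which monocytes leave the marrow, had the smallest fitted difference of the 7. It read 5.40, 5.34, 5.06 and 5.93 in Sca-1- and 5.62, 5.47, 5.51 and 6.06 in Sca-1+ replicates 1 to 4, and the replicate 4 samples were the highest of both groups. The difference was 0.23 ± 0.22 SE (95% confidence interval -0.27 to 0.73, limma adjusted p = 1.00), with slide values of 0.22, 0.13, 0.45 and 0.12. Its probe lies on chromosome 9, 124022948 to 124023007 (mm9).

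Ccr7, the Ccl19 and Ccl21 receptor that takes maturing dendritic cells into lymph nodes, turned on 1 sample. Its level was 0.49, 0.21, -0.30 and 2.19 in Sca-1- and 0.05, 0.23, 0.03 and 0.02 in Sca-1+ replicates 1 to 4. Sca-1- replicate 4 lay 1.70 above the next Sca-1- sample, whereas the Sca-1+ samples kept within a narrow band (SD 0.10 against 1.08). The difference was -0.57 ± 0.47 SE (95% confidence interval -1.64 to 0.51, limma adjusted p = 0.969), and it was -0.05 without Sca-1- replicate 4. Slide values were -0.44, 0.02, 0.33 and -2.17, with 2 slides in each direction. The probe lies on chromosome 11, 99005551 to 99005610 (mm9).

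Cmklr1, the receptor for chemerin, and S1pr1 could not be compared. The Cmklr1 probe (chromosome 5, 114063415 to 114063474, mm9) exceeded background by the scanner program's mark in 1 of 4 Sca-1- samples and in 0 of 4 Sca-1+ samples. Its measured means were -3.92 and -5.08, mostly from signals not well above background, so neither a fold nor a direction is given. The S1pr1 probe (chromosome 3, 115414020 to 115414079, mm9) reached that mark on 0 of 8 arrays, so no fold is given. S1pr1 had 1 probe on this array, and S1pr4, the receptor of the same family used by many blood cells, was measured on all 8 arrays with a difference of 0.02 ± 0.28 SE.

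**Figure D3:**
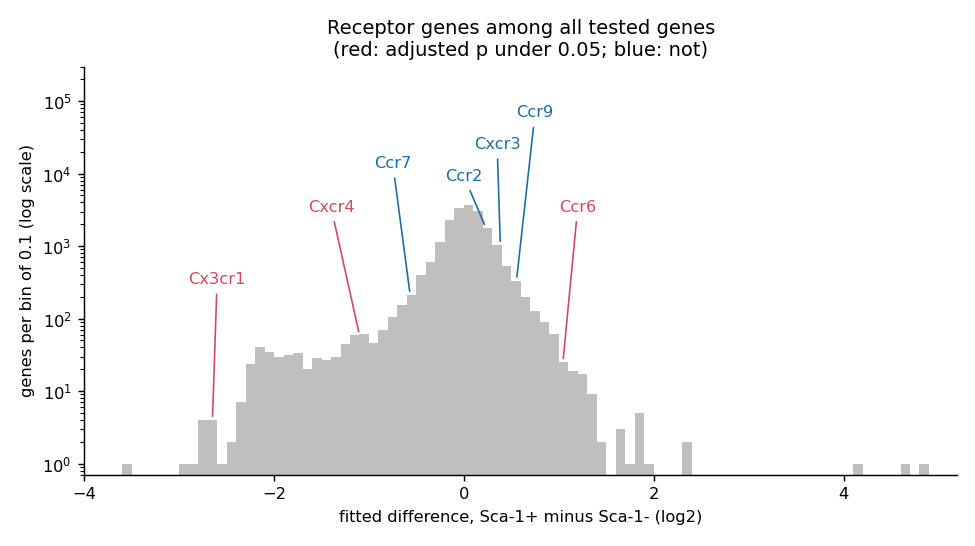
Histogram of the fitted differences of all 19818 tested genes (x axis, log2, bins of 0.1; y axis, genes per bin on a log scale), with lines to the bins of the 7 tested receptor genes, red where the adjusted p was below 0.05. Cx3cr1 at -2.65 lies in the far lower tail, while Ccr2, Cxcr3 and Ccr9 lie between 0.23 and 0.55 on the upper shoulder.

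Over the 7 tested receptors the median difference was 0.23, against 0.03 over all tested genes. Of these differences 4 were positive and 3 negative, and 6 of the 7 had 1 sign on all 4 slides, which 36.2% of all tested genes had. The 3 called receptors were also the 3 whose groups did not overlap, as was the case for 6.95% of all tested genes.

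The other genes of the pathway gave no call in the unpaired fit. Of 27 other chemoattractant receptors, all with a probe, 12 were tested and 13 were not well above background on any array, among them Cxcr5, Cxcr2, Ccr4, Xcr1 and the scavenging receptors Ackr3 and Ackr4. Of the 12, limma called 0 (3 at an unadjusted p below 0.05), 8 differences were positive, and the median was 0.09. With the slide as a block 3 were called, and 2 of them are described here. Ccr10, a skin-homing receptor, was higher by 1.29 (adjusted p = 0.276 unpaired and 0.00672 with the block), and S1pr3, another receptor for sphingosine 1-phosphate, was lower with a difference of -1.50 (0.0597 and 0.0155). The S1pr3 differences ran from -2.25 to -1.16 within slides and its groups did not overlap. With normexp background correction the S1pr3 difference was -0.62 (limma adjusted p = 0.729) and the Ccr10 difference 0.74 (0.275). S1pr3 read -3.65 to -3.05 in Sca-1+ samples, near the floor. The lowest levels well above background on those arrays were -4.71 to -3.50.

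Ligands of the 9 receptors were mostly not well above background. Of 23 genes for ligands and for the making, export and breakdown of sphingosine 1-phosphate, 20 had a probe and 9 were tested. Ccl2, Ccl7, Ccl12, Ccl20, Cxcl12 and Rarres2, the gene of chemerin, were not well above background on any array, and Cx3cl1 and Cxcl10 were each on 1. Ccl19, Ccl25 and Cxcl9 were well above background on all 8 arrays. The Ccr7 ligand genes Ccl21a, Ccl21b and Ccl21c had no probe. Limma called 0 of the 9, with 0 at an unadjusted p below 0.05 and 0 called with the slide as a block, and the median was 0.11. The members with the smallest p were Spns2, a sphingosine 1-phosphate exporter, at -0.21 (adjusted p = 0.838) and Sgpp1, a phosphatase of that lipid, at 0.19 (adjusted p = 0.953). Cxcl11, a Cxcr3 ligand, was well above background on all 8 arrays, at levels of 8.79 to 10.50, and differed by 0.21 ± 0.42 SE. Levels of Cxcl9, another Cxcr3 ligand, were -4.79 to -2.63. Whether the Cxcl11 probe also reads other transcripts was not tested.

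Regulators and signalling genes downstream of the receptors gave 1 call in all, in the blocked fit. Of 15 tested regulators limma called 0 (2 at an unadjusted p below 0.05), with a median of 0.05. Grk3, a kinase that phosphorylates active receptors and ends their signal, differed by -0.75 ± 0.22 SE and was the 1 call with the slide as a block (adjusted p = 0.225 unpaired and 0.0338 with the block). Its slide differences ran from -1.04 to -0.40. Of 31 tested genes of G proteins, their effectors and the motility machinery, 20 differences were negative and 11 positive, from -0.36 to 0.22, and the median was -0.04. Limma called 0 of them, also with the block, and 1 had an unadjusted p below 0.05, the small GTPase gene Rac1 (-0.36 ± 0.13 SE, adjusted p = 0.370). Myo1g, a myosin of blood cells, was at -0.28 (adjusted p = 0.665).

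**Figure D4:**
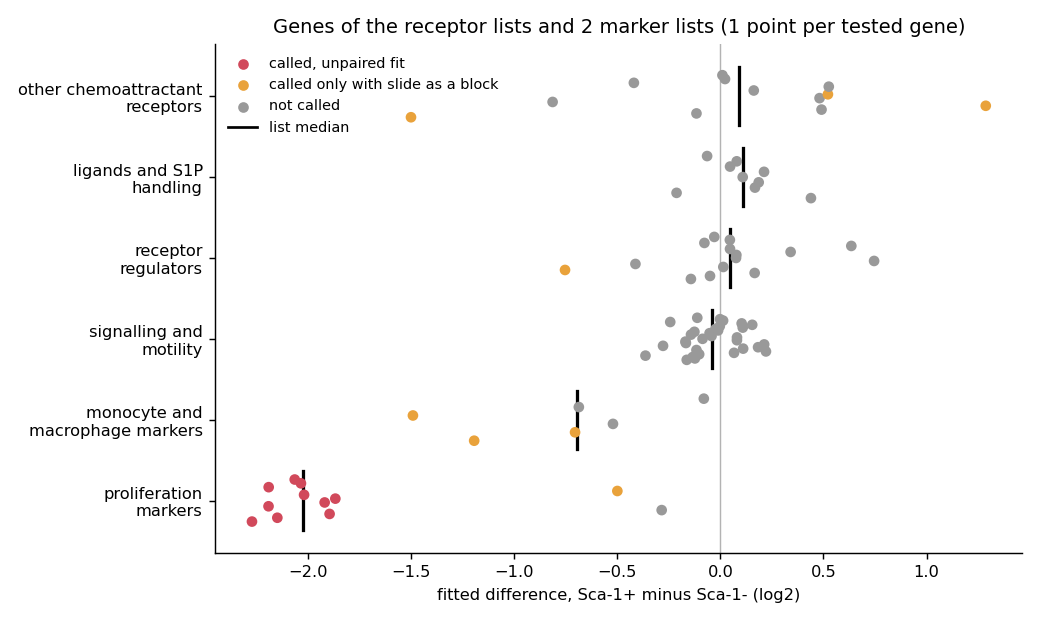
Fitted differences between Sca-1+ and Sca-1- pDC (x axis, log2) of the tested genes in 4 lists around the receptors and 2 marker lists, 1 point per gene, with a black line at each list's median. Signalling genes lie between -0.36 and 0.22, while the proliferation markers centre at -2.03 and the monocyte and macrophage markers at -0.70.

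Both populations carried the pDC genes. All 13 pDC markers with a probe were well above background on all 8 arrays, limma called 0 of them (3 at an unadjusted p below 0.05, and Irf7 and Tlr7 higher with the slide as a block), and their median was 0.20. Of 9 tested granulocyte, mast cell and basophil genes 0 were called (0 at an unadjusted p below 0.05 and 0 with the block), and their summed level ran from 2.10 to 4.90 in Sca-1- and from 1.63 to 4.94 in Sca-1+ samples. Of 8 tested conventional dendritic cell genes 0 were called (2 at an unadjusted p below 0.05). Their median was 0.36, with 6 differences positive and 2 negative, from -1.20 to 1.00. With the block Id2 and Sirpa were higher and Zbtb46 lower, where 2.1% of all genes were called higher and 4.12% lower. Xcr1 was well above background on 0 of 8 arrays. Among 3 tested B cell genes and 4 tested T and NK cell genes 0 were called, also with the block, with 0 and 1 at an unadjusted p below 0.05. Ms4a1, Pax5, Cd3d, Cd3g and Ncr1 were not well above background on any array. Irf7, Tlr7, Id2, Sirpa and Zbtb46 were named here after their values were seen.

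As a description, the genes most alike to each called receptor over the 8 arrays were sought by Pearson correlation among 17676 genes well above background on every array. For Cx3cr1 these were Lig1, encoding a DNA ligase of replication (r = 0.999), Uhrf1, which maintains DNA methylation at replication (0.997), and TC1715571, a feature without a gene name (0.997). Their differences were -1.30, -2.11 and -2.63. For Cxcr4 they were Zranb3 (0.984), which acts at stalled replication forks, Srd5a1 (0.983), a steroid reductase, and Ndufb1 (0.980), a subunit of respiratory complex I. For Ccr6 they were Gpr132 (0.987), a G protein-coupled receptor of blood cells, the unnamed probe A_55_P2186961 (0.981) and Fyb (0.975), an adaptor of integrin signalling. The Cxcr4 genes differed by -1.13, -1.59 and -0.70 (limma adjusted p = 0.00774 to 0.0325). Differences for Ccr6 were 0.67, 0.45 and 0.34, and limma called none of these (adjusted p = 0.112 to 0.379). The difference between groups enters these correlations, and 527, 371 and 103 genes exceeded 0.9 for Cx3cr1, Cxcr4 and Ccr6.

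**Figure D5:**
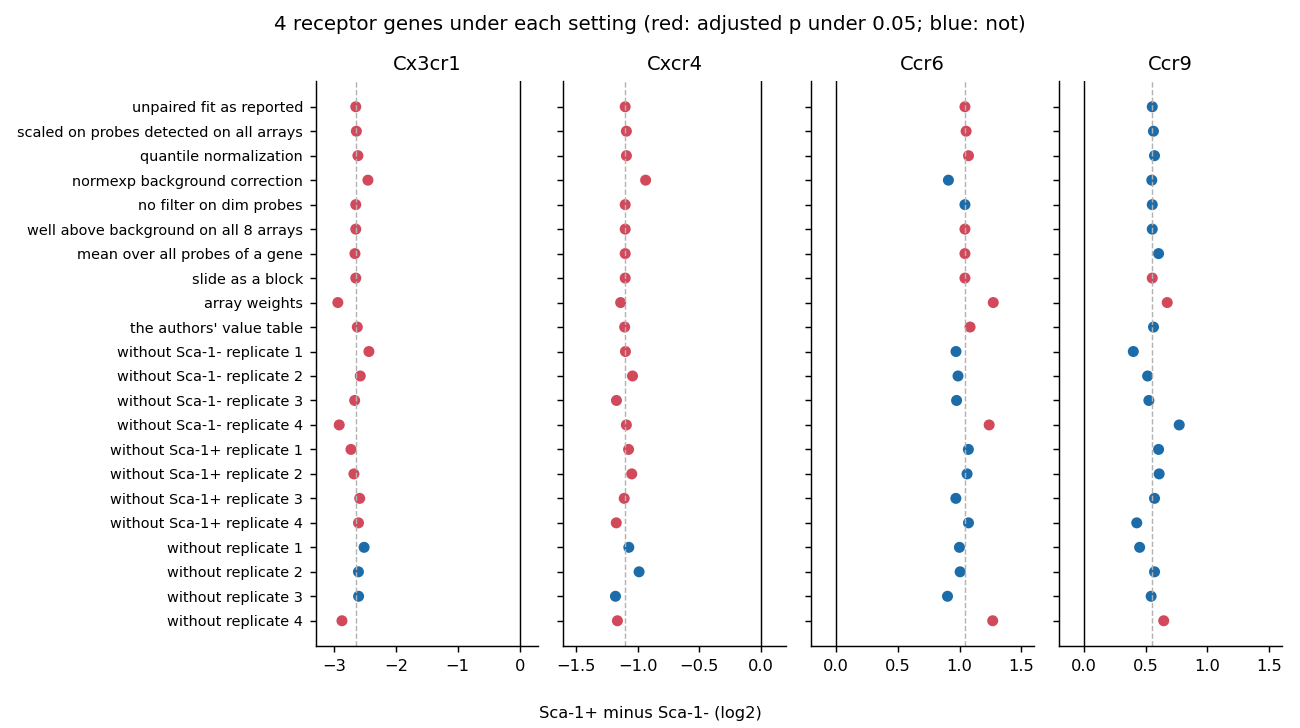
Difference between Sca-1+ and Sca-1- pDC (x axis, log2) of Cx3cr1, Cxcr4, Ccr6 and Ccr9 in the unpaired fit (top row) and under each of 21 other settings (y axis), red where the adjusted p was below 0.05 and with a dashed line at the value of the unpaired fit. Every point keeps its sign, and the calls of Cx3cr1 and Cxcr4 ended in the 3 fits without both samples of replicate 1, 2 or 3.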

How the data were processed

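Each of the 8 arrays measured 1 polyA RNA sample, of which 100 ng was amplified and labelled with Cy3 per the labels. Per the file headers, the deposited values are linear spot intensity from the program Feature Extraction 10.7.3.1, with probe positions on mm9. The extraction protocol was GE1_107_Sep09 for both replicate 4 arrays and GE1_105_Jan09 for the others. The processed signal deposited was already background-subtracted by that program. The authors also deposited log2 values with 1 median (3.90) in every column, which correlated with the scanner levels at r = 0.998 or more. They served as an alternative, and the sources used here do not state their normalization.

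Control spots and 105 to 162 outlier spots per array were left out, with 0 saturated spots. Repeated spots were averaged as log2 values, and each array's 75th percentile over 55681 probes was subtracted. Names were updated through RefSeq accessions (26582 probes) or symbols (3094), and 26005 kept the file's name. Whether probes lie in coding exons or untranslated regions was not analysed here. The number of arrays limits the precision.

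Groups were compared with limma 3.58.1 (lmFit and eBayes, two-sided, unpaired) in R 4.3.3, with version 1.17.8 of data.table, and p-values were Benjamini-Hochberg adjusted over 19818 genes. The fitting code was tested on simulated data. Arrays with the same replicate number shared a slide per the file headers, and deviations from the group means correlated at 0.44, 0.43, 0.64 and 0.89 within the pairs of replicates 1 to 4. Between unlike numbers among replicates 1 to 3 they correlated at 0.12 to 0.54. Only 6 of 8 samples correlated best with their own number. Results with the slide as a blocking term are given where they change a call. That term does not separate group from placement on the slide. Across numbers, replicate 4 correlated with the others at -0.39 to -0.72. Deviations from a group mean cancel out within the group, so a high correlation within a pair pulls those across numbers down. The negative values are therefore partly set by the centring. Summed levels are log2 of the sum of scaled signals.

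The 9 receptors and the lists were chosen with earlier results of these data known. Named genes are the 9 receptors, Ly6a, genes of each pathway list called in the unpaired or blocked fit (else the 2 with the smallest p), up to 4 called genes per marker list, and the 3 genes most alike to each called receptor. Other genes are named for their role, or to say which were below background, after their values were seen. Alternatives were other scalings and background correction, filters, probe averaging, array weights and leaving out arrays. Tables were made with pandas 2.3.3 and numpy 2.4.6 under Python 3.11.15, and figures with matplotlib 3.10.9. Some genes that the rule names are not reported here.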

Additional observations from a re-analysis of the deposited data

Results flagged for a closer look

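Over 48 groups of 4 samples, from the receptors' probes and the other named genes, 5 had a sample far from the other 3, where chance gives about 1 in 20. Ccr6 had 2 of them. Its level of 1.35 in Sca-1- replicate 4 stood above 0.55 to 0.60 in the other Sca-1- samples, and its level of 2.03 in Sca-1+ replicate 3 stood above 1.72 to 1.76 in the other Sca-1+ samples. Ccr7 read 0.23 in Sca-1+ replicate 2 against 0.02 to 0.05 in the others, a small gap in a tight group. Sgpp1 read 6.39 in Sca-1+ replicate 4 against at most 6.07 in the others. Grk3 read 0.44 in Sca-1+ replicate 4 against 1.14 to 1.27 in the other Sca-1+ samples.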

How the results depend on the processing

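None of the 7 tested receptors changed sign under any of the 21 alternatives run. Cx3cr1 ranged from -2.94 to -2.44 and Cxcr4 from -1.18 to -0.93, and both stayed called in all but the 3 fits without both samples of replicate 1, 2 or 3. There their adjusted p-values were at most 0.0882 and 0.129. Ccr6 ranged from 0.90 to 1.27 and stayed called in 9 of 21. Ccr9 was also called when arrays were weighted (0.68, adjusted p = 0.0258) and when both replicate 4 samples were left out (0.65, adjusted p = 0.0469). Limma called 0 to 4 receptors when arrays or pairs of arrays were left out. In the fits that called 0, 3 had an unadjusted p below 0.05. The count over all genes was 339 in the unpaired fit, 1233 with the slide as a replicate block (66.3% of them lower, against 92.6%), 1445 with array weights (67.9% lower), 182 without the filter on dim probes, and 1 to 879 when arrays were left out. Fits without both samples of a number have fewer samples. They called 1, 2 and 29 genes without replicate 1, 2 or 3, and 879 without replicate 4. The cause of these and the other changes was not tested. The median of the other chemoattractant receptors was 0.25 among genes well above background on all 8 arrays and -0.048 to 0.25 with arrays left out. The ligand median was then 0.013 to 0.18, that of the regulators -0.019 to 0.070, and that of the signalling genes -0.16 to 0.021. The scalings tried moved the median of all genes by at most 0.0095. Beyond the replicate block, S1pr3 was also called with quantile normalization, in the authors' value table, with array weights, without Sca-1- replicate 4 and without both samples of replicate 4. Ccr10 was called in the last 3 of these, Grk3 with array weights and without both samples of replicate 4, and Rac1 with array weights. Signal over background limits Cmklr1 and S1pr1.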
